A study of Mus musculus with 12 samples.

Results

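The assays mmu-miR-143 and mmu-miR-145, with the passenger strand miR-145*, were followed in carotid arteries of apoE-/- mice. They were taken by name from the table of raw threshold cycles (Ct), and are 3 of its 513 miRNA assays with values. A passenger-strand assay of miR-143 was not analysed here. The 12 arteries were 6 partially ligated left carotid arteries, described as atherosclerotic, and 6 untreated right carotid arteries, described as free of atherosclerosis. The left artery of 6 female mice was ligated, and the labels do not say that the right arteries with the same number are from the same mice. In the ligated artery the external and internal carotid and the occipital artery were closed, so that blood left mainly through the superior thyroid artery. Mice of both groups lacked apoE, had a labelled age of 6 to 8 weeks, and received a diet with 21% fat and 0.15% cholesterol for 6 weeks. The groups therefore share the genotype and the diet, and no sham-operated artery or artery on normal diet is among the 12. Each sample is RNA of a whole artery, in which fewer cells of a type and less RNA per cell cannot be told apart.

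MicroRNAs are short RNAs that guide a silencing complex to matching sites in messenger RNAs, mostly through the seed near their 5′ end. miR-143 and miR-145 are processed from neighbouring hairpins, and in the RefSeq table for the mouse assembly GRCm38.p6 both hairpins lie inside the span of Carmn, a long non-coding RNA gene. They are known as the most typical miRNAs of vascular smooth muscle, are switched on by serum response factor with myocardin, and favour the contractile over the growing state of these cells. miR-145 is known to repress Klf4 and Klf5, factors of the growing state.

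A lower Ct means more RNA, and 1 cycle stands for a doubling if amplification is complete. A miRNA was called detected below a Ct of 35. Levels are log2 values, the mean Ct of the 283 miRNA assays detected in all 12 samples minus the Ct of the assay. That mean was 25.5 ± 0.759 (SD, n = 6) in control and 24.5 ± 0.734 (SD, n = 6) in ligated arteries, so unscaled Ct values understate a loss in ligated arteries by 0.986 cycles relative to these levels. Numbers 1 to 3 and numbers 4 to 6 formed 2 sets: within a group, arteries of the same set differed by a median of 0.34 (control) and 0.35 (ligated) in level over these 283 assays, and arteries of different sets by 0.87 and 0.86. The comparison is therefore also given in each set. In raw Ct, ligated 5 and ligated 6 were the closest of the pairs within a group, with a median difference of 0.246 cycles. Both are labelled as biological replicates, and with these 2 averaged as 1 sample the log2 fold changes below were -2.39 for miR-145 and -2.16 for miR-143 (adjusted p 0.0156 for both, limma). Of 6 control RNAs, U6 differed by 0.32 and snoRNA429 by 0.09 (log2 level, ligated minus control), Y1 by -0.91 and snoRNA135 by 0.54. Over both groups, snoRNA429 lay at 7.07 to 7.71 in numbers 1 to 3 and at 5.22 to 5.91 in numbers 4 to 6. U6 lay at 11.05 to 12.7 and at 10.05 to 10.44 in the same sets.

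Both guide strands were lower in ligated arteries, miR-145 5.24-fold and miR-143 4.33-fold. miR-145 amplified earlier than any other miRNA assay in all 6 control arteries, and miR-143 came between number 3 and number 15 there. The 2 assays followed each other closely from artery to artery. Wells of the passenger strand miR-145* either came up by a Ct of 31.3 or gave no signal at all, and its fold change did not pass the test.

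The level of miR-145 in control arteries was lowest at 9.72, had a median of 11.99 and was highest at 12.37. In ligated arteries the lowest level was 8.35, the median 9.15 and the highest 9.80. Thus 5 of the 6 control arteries lay above every ligated artery, and control 2, at 9.72, was below ligated 2. The mean level went from 11.51 ± 1.02 (SD, n = 6) to 9.12 ± 0.49 (SD, n = 6). In limma's moderated test over all 339 tested assays (those detected in at least 4 of 6 arteries of a group), the log2 fold change of miR-145 was -2.39 ± 0.45 (SE), with a 95% interval of -3.37 to -1.41 and an adjusted p of 0.00669.

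The level of miR-143 in control arteries ran from 5.97 over a median of 7.93 to 8.20. In ligated arteries it ran from 4.74 over a median of 5.45 to 5.77. The groups did not overlap: control 2 was again the lowest control artery, and lay just above ligated 6. The mean level went from 7.49 ± 0.92 (SD, n = 6) to 5.37 ± 0.38 (SD, n = 6). Its log2 fold change was -2.12 ± 0.40 (SE), and the 95% interval ran from -2.99 to -1.24, with adjusted p = 0.00669 (limma).

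Both of the 2 guide strands were called lower, where 5.01% of all tested assays were called lower and 7.37% higher. Groups that did not overlap, with the ligated arteries below, were found in 2.36% of the tested assays. In the order of the log2 fold change over the 283 assays detected in all samples, miR-145 was number 3 from the lowest and miR-143 number 6. Over all 339 tested assays the neighbours of miR-143 were miR-378 at -2.13 ± 0.39 (SE) and miR-365 at -1.85 ± 0.35 (SE), and those of miR-145 were miR-145* and miR-378* at -2.30 ± 0.82 (SE, adjusted p 0.108, or 0.0186 with each replicate number as a block). These neighbouring differences lie within each other's errors. The calls of both guide strands ended with raw Ct, at -1.13 for miR-143 and -1.40 for miR-145 (adjusted p 0.0884 and 0.0716, limma). With U6 and snoRNA429 as the reference the values were no smaller, at -2.32 ± 0.76 (SE) and -2.60 ± 0.75 (SE), but their errors were larger and the calls ended too (adjusted p 0.165 and 0.101, limma). The log2 fold change of miR-145 shrank to -0.62 under quantile normalization, which gives the earliest assay of each sample the same value.

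**Figure D1:**
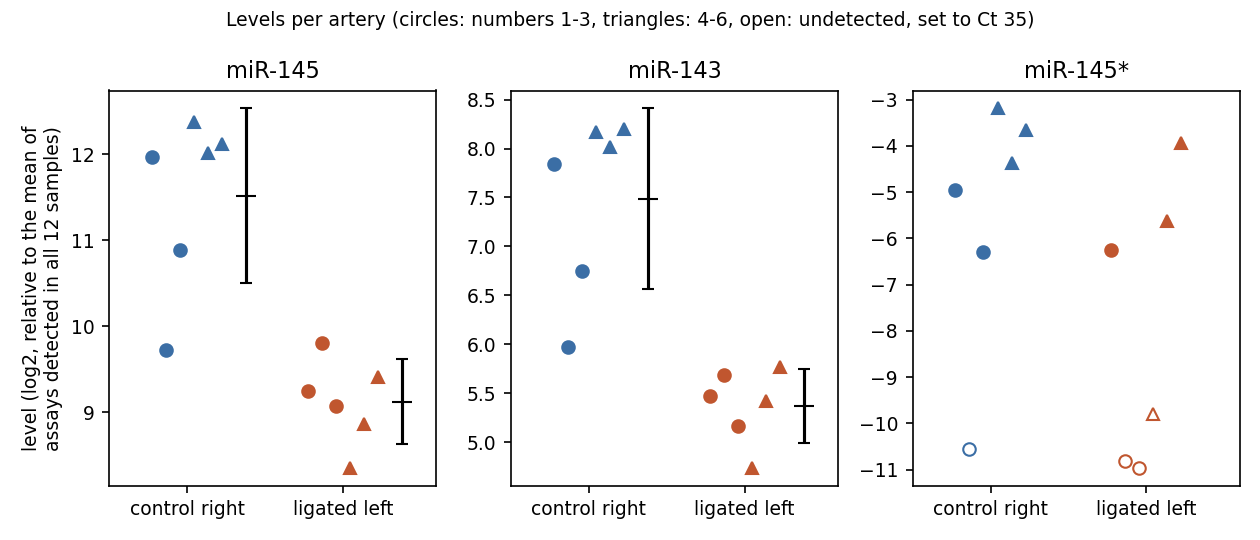
Log2 level of miR-145, miR-143 and miR-145* in each artery, with control right arteries in blue and ligated left arteries in orange. Circles are numbers 1 to 3, triangles numbers 4 to 6, open symbols undetected wells set to a Ct of 35, and black bars mean ± SD (n = 6). For miR-143 all 6 ligated arteries, up to 5.77, lie below the lowest control at 5.97; for miR-145 control 2 at 9.72 lies below ligated 2 at 9.80.

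The control arteries accounted for much of the spread. Among controls numbered 4 to 6, miR-145 levels averaged 12.17 ± 0.18 (SD, n = 3) and miR-143 levels 8.13 ± 0.10 (SD, n = 3). Among controls numbered 1 to 3 they averaged 10.86 ± 1.12 (SD, n = 3) and 6.85 ± 0.94 (SD, n = 3). The ligated arteries were closer between the sets, with miR-145 at 9.37 ± 0.38 (SD, n = 3) in numbers 1 to 3 and 8.88 ± 0.53 (SD, n = 3) in numbers 4 to 6. miR-143 in ligated arteries was at 5.44 ± 0.26 (SD, n = 3) and 5.31 ± 0.52 (SD, n = 3) in the same sets.

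Both miRNAs were lower in ligated arteries in either set, and passed the test in numbers 4 to 6. The log2 fold change of miR-145 was -1.49 ± 0.62 (SE) within numbers 1 to 3, with an adjusted p of 0.429, and -3.29 ± 0.30 (SE) within numbers 4 to 6, with an adjusted p of 0.00177 (limma). That of miR-143 was -1.41 ± 0.53 (SE) with an adjusted p of 0.404, and -2.82 ± 0.28 (SE) with an adjusted p of 0.00269. With ligated 5 and ligated 6 averaged as 1 sample, the values within numbers 4 to 6 were -3.42 (adjusted p 0.00651) and -2.96 (adjusted p 0.00941). Within numbers 1 to 3 limma called 0.00% of the tested assays lower, with 13 of 339 lower at an unadjusted p under 0.05, and within numbers 4 to 6 it called 15.0%. Numbers 4 to 6 minus numbers 1 to 3 came to -1.81 ± 0.72 (SE) for miR-145 and -1.41 ± 0.62 (SE) for miR-143, and this interaction did not pass for either (adjusted p 0.545, limma). With samples compared by number, the ligated artery was lower for miR-143 in 6 of 6 cases and for miR-145 in 5 of 6. These differences ran from -3.43 to -0.28 for miR-143 and from -4.02 to 0.08 for miR-145.

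miR-145 was the earliest of the 513 miRNA assays in 6 of 6 control arteries and 4 of 6 ligated arteries, and its rank in the others was at most 4. Its mean Ct was 13.9 ± 0.572 (SD, n = 6) in control and 15.3 ± 1.06 (SD, n = 6) in ligated arteries. miR-24, a widely expressed miRNA, came next in control arteries at 16.1 ± 0.837 (SD, n = 6). In ligated arteries miR-24 averaged 15.2 ± 1.06 (SD, n = 6), beside 15.3 for miR-145, and their difference within arteries was not tested. miR-143 had a mean Ct of 18.0 ± 0.497 (SD, n = 6) in control and 19.1 ± 0.900 (SD, n = 6) in ligated arteries. Its rank ran from 3 to 15 in control arteries and from 14 to 29 in ligated arteries. Ranks between assays depend on how well each assay amplifies, which was not tested.

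Expressed as a share of the summed signal of all detected miRNA assays (2 to the power of minus Ct), miR-145 made up 41.9% ± 14.4 (SD, n = 6) in control and 13.1% ± 3.68 (SD, n = 6) in ligated arteries. The control arteries ran from 19.2% to 55.4% and the ligated arteries from 8.35% to 16.5%, without overlap. The share of miR-143 went from 2.54% ± 0.819 (SD, n = 6) to 0.975% ± 0.285 (SD, n = 6), with 1.42% to 3.43% in control and 0.558% to 1.32% in ligated arteries. These shares need no reference RNA, but assume that all assays amplify alike, and are given without a test.

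In raw Ct, before any scaling, miR-143 and miR-145 put the arteries of each group in the same order. Raw Ct of other pairs of assays was not compared in this way. Within the 6 control arteries Pearson's r was 0.960 (exact permutation p = 0.00278, two-sided, adjusted 0.00556) and Spearman's rho 1. Within the 6 ligated arteries r was 0.983 (exact permutation p = 0.00278, adjusted 0.00556) and rho 1. Without the 2 arteries farthest from the median of miR-143, r was 0.781 in control and 0.9998 in ligated arteries (n = 4). Raw Ct values of 1 sample share the amount of RNA put in, and levels share the reference. On the level scale r was 0.990 in control (exact permutation p = 0.00556, adjusted 0.00741) and 0.884 in ligated arteries (exact permutation p = 0.0306, adjusted 0.0306), with rho at 0.943 (p = 0.0167, exact permutation) and 0.886 (p = 0.0333, exact permutation). Without the 2 farthest arteries r on this scale was 0.731 and 0.742. The adjustment covers these 4 relations, and a set of 3 numbers is too small for an r of its own. The permutations mixed the 2 sets and broke the shared input, so their p-values do not show a tie particular to this pair.

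**Figure D2:**
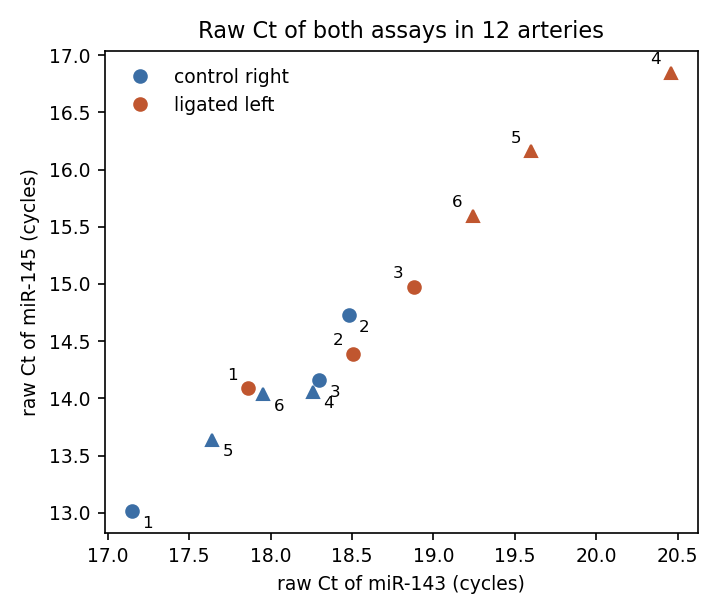
Raw Ct of miR-145 (vertical, cycles) against raw Ct of miR-143 (horizontal, cycles), with 1 point per artery, its label number beside it, controls in blue and ligated arteries in orange. Ligated 4, 5 and 6 stand at the late end, with miR-145 at a Ct of 15.6 to 16.8, while ligated 1 to 3 lie at 14.1 to 15.0 partly within the control range of 13.0 to 14.7.

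The difference between the 2 assays in a sample needs no reference at all. miR-145 was ahead of miR-143 by 4.02 ± 0.169 cycles (SD, n = 6) in control and by 3.75 ± 0.239 cycles (SD, n = 6) in ligated arteries. Control arteries ran from 3.75 to 4.20 cycles and ligated arteries from 3.44 to 4.12, so the groups overlapped. The lead fell by 0.28 cycles, or 1.21-fold, with an exact permutation p of 0.0455 (two-sided, n = 6). It was smaller in the ligated artery in 5 of 6 same-numbered comparisons, and the paired sign-flip test gave an exact p of 0.156. It also ended when any 1 artery other than control 2, ligated 2 or ligated 3 was left out (exact permutation p up to 0.0931), and the change in the sets was -0.075 (numbers 1 to 3) and -0.48 (numbers 4 to 6).

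The passenger strand miR-145*, the other arm of the miR-145 hairpin, is usually discarded when the guide is loaded. It was detected in 5 of 6 control arteries at a Ct of 29.6 to 31.3, and in 3 of 6 ligated arteries at a Ct of 28.9 to 30.6. The 4 other wells, control 2 and ligated 2, 3 and 4, are listed at 40, and no well lay between 31.3 and 40. The difference in detection did not pass Fisher's exact test (two-sided p = 0.545), which with 6 arteries in a group cannot tell 5 of 6 from 3 of 6. With undetected wells set to a Ct of 35, the log2 fold change was -2.39 ± 1.52 (SE), with a 95% interval of -5.70 to 0.91 and an adjusted p of 0.427 (limma). With those wells left missing it was -0.77 ± 0.77 (SE). Since the control group also had an undetected well, neither value is a bound.

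Where the passenger strand was detected, it came up later than the guide by 16.4 ± 0.702 cycles (SD, n = 5) in control and by 14.4 ± 1.07 cycles (SD, n = 3) in ligated arteries. The control gaps ran from 15.6 to 17.2 cycles and the ligated gaps from 13.3 to 15.5. In the undetected wells the gap was at least 20.3 cycles in control 2, at least 20.6 in ligated 2, at least 20.02 in ligated 3 and at least 18.2 in ligated 4. The narrower gaps of ligated 1, 5 and 6 thus stand beside wider ones in ligated 2, 3 and 4, provided that these wells did not fail.

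The balance of both guide strands against most of 8 chosen miRNAs of other roles or cell types was also lower, without any reference RNA. These partners were chosen with earlier results of these data known. A balance also falls where the partner rises, so it does not by itself show a fall of the guide strand. The Ct of each partner minus that of the guide strand was compared for 8 partners and 2 guide strands. Of these 16 balances, 12 were lower in ligated arteries (exact permutation tests, adjusted over the 16), and 10 of the 12 had the smallest p that 924 splits allow, 0.00216 (adjusted 0.00346). The 2 guide strands varied together, so the 16 are not separate results. Balances against the other tested assays were not computed, and whether a fall is particular to these 8 partners was not tested.

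The widest change of the 16 was against miR-21, a miRNA induced in injured vessels and in growing smooth muscle. miR-145 was ahead of miR-21 by 7.16 ± 0.450 cycles (SD, n = 6) in control arteries and by 1.92 ± 1.59 cycles (SD, n = 6) in ligated arteries. The lowest control stood at 6.75 and the highest ligated artery at 3.78. The change was -5.25 cycles, or 37.95-fold, and in the sets -4.03 (numbers 1 to 3) and -6.47 (numbers 4 to 6). For miR-143 against miR-21 it was -4.97 cycles, or 31.4-fold, and miR-143 came up before miR-21 in every control artery and after it in every ligated artery.

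Against miR-221, a miRNA of endothelium and growing smooth muscle, the balance changed by -4.12 cycles for miR-145 and -3.84 for miR-143. Against miR-142-3p, a miRNA of blood cells, it changed by -4.16 and -3.89 cycles, and against miR-223, a miRNA of neutrophils and monocytes, by -4.06 and -3.79. On the level scale miR-21, miR-221 and miR-142-3p were themselves called higher in ligated arteries, and miR-223 was at 1.67 ± 0.57 (SE), with an adjusted p of 0.0905, or 0.00768 in the fit with the replicate block (limma). miR-199a-3p, a miRNA of mesenchymal cells, was itself at 0.52 ± 0.29 (SE, log2 fold change) and did not pass (adjusted p 0.332, limma). Against it the balance changed by -2.91 cycles for miR-145 and -2.64 for miR-143, without overlap between the groups.

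The endothelial miR-126-3p was itself at 0.00 ± 0.54 (SE, log2 fold change). Against it miR-145 fell by 2.39 cycles (exact permutation p = 0.0152, adjusted 0.0220) and miR-143 by 2.12 cycles (p = 0.0281, adjusted 0.0375, exact permutation), with overlapping groups and lower balances in 6 of 6 same-numbered comparisons. The miR-143 call ended when control 1, 4, 5 or 6, or ligated 1, 2 or 3, was left out (exact permutation, adjusted p up to 0.0779 over the 16).

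Against miR-1 and miR-133a, which mark heart and skeletal muscle and occur in smooth muscle, the balances did not pass. For miR-1 they changed by -0.64 cycles with miR-145 (adjusted p 0.202, exact permutation) and -0.36 with miR-143 (adjusted p 0.416, exact permutation). In numbers 1 to 3 these were 0.091 and 0.17, the opposite sign, and in numbers 4 to 6 they were -1.37 and -0.89. All ligated arteries of numbers 4 to 6 lay below the controls of that set, at an exact permutation p of 0.1, the smallest that 3 against 3 allows. Without ligated 2 the balance with miR-145 was -0.91 with an adjusted p of 0.0519 (exact permutation, unadjusted 0.0390). For miR-133a they changed by -1.16 cycles (adjusted p 0.314, exact permutation) and -0.89 cycles (adjusted p 0.422, exact permutation), with control values for miR-145 from 3.87 to 7.72 and ligated values from 2.17 to 6.36. Much of this spread lay between the sets. Controls stood at 3.87 to 4.94 in numbers 1 to 3 and at 7.1 to 7.72 in numbers 4 to 6. In numbers 4 to 6 the miR-145 change was -1.31, with ligated arteries (5.96 to 6.36) below those controls (exact permutation p = 0.1). In numbers 1 to 3 it was -1.02, with overlap (exact permutation p = 0.4). Paired sign flips gave an adjusted p of 0.0714 for both guide strands. The test over all arteries mixed the sets, and with this spread could not tell a difference of this size from none.

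**Figure D3:**
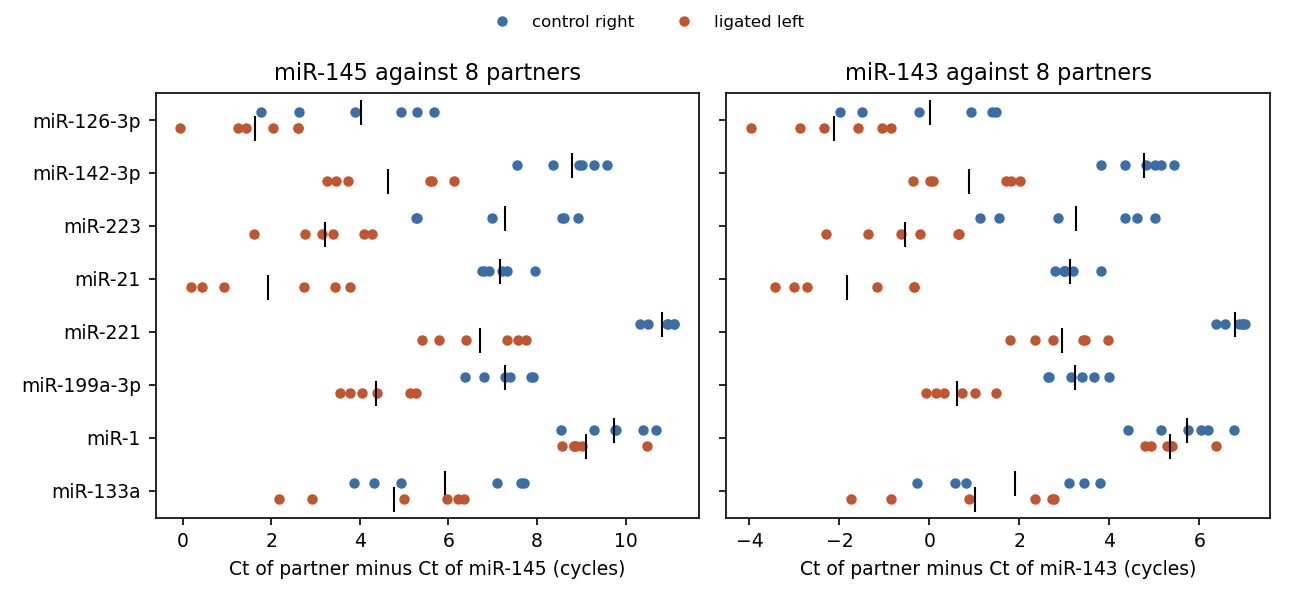
Ct of each of 8 partner miRNAs minus the Ct of miR-145 (left) or miR-143 (right), in cycles, with 1 point per artery and a black tick at the mean of each group of 6. Control (blue) and ligated (orange) points are apart for miR-142-3p, miR-223, miR-21, miR-221 and miR-199a-3p, and overlap for miR-126-3p, miR-1 and miR-133a.

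Of the 5 members of the contractile smooth muscle list, 3 were called lower, among them the 2 guide strands, and none higher. Over all tested assays 5.01% were called lower. The median log2 fold change of the list was -1.75, against -0.05 over all tested assays. Besides the 2 guide strands, miR-1 fell by 1.75 ± 0.45 (SE) with an adjusted p of 0.0238 (limma), while miR-133a at -1.23 ± 0.86 (SE) and miR-133b at -1.28 ± 0.63 (SE) did not pass, the latter with an adjusted p of 0.268, or 0.0321 in the fit with the replicate block. The miR-1 call ended when control 1, 3, 4 or 5, or ligated 2 or 4, was left out (adjusted p up to 0.0578). The fold changes of miR-143 and miR-145 are part of this median, which is the value of miR-1 itself. Apart from the guide strands, every assay of this list returns below among the skeletal and heart muscle markers. Which type of muscle the shared assays reflect was not tested.

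Of the 7 miRNAs of the smooth muscle growth list, 4 were called higher, against 7.37% of all tested assays, and none lower. The median of the list was 1.57, and the lists were drawn up with earlier results of these data known. miR-21 rose by 2.86 ± 0.62 (SE), miR-221 by 1.73 ± 0.40 (SE), miR-146a by 1.65 ± 0.40 (SE) and miR-222 by 1.57 ± 0.41 (SE). The miR-222 call needed control 4, 5 and 6 and ligated 2 (adjusted p up to 0.0696 without 1 of them, limma). miR-31, miR-26a and miR-24 had log2 fold changes of 0.98, -0.42 and -0.06 and did not pass.

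None of the 12 tested members of the smooth muscle and mesenchyme list was called in either direction by limma, and their median was -0.21. Here miR-214 was at -0.06 ± 0.52 (SE), miR-29a at 0.36 ± 0.18 (SE), miR-125b-5p at -0.22 ± 0.54 (SE) and let-7b at -0.64 ± 0.39 (SE). Of the other 2 names on the list, miR-23a was detected too seldom to be tested and miR-199b had no matching assay.

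**Figure D4:**
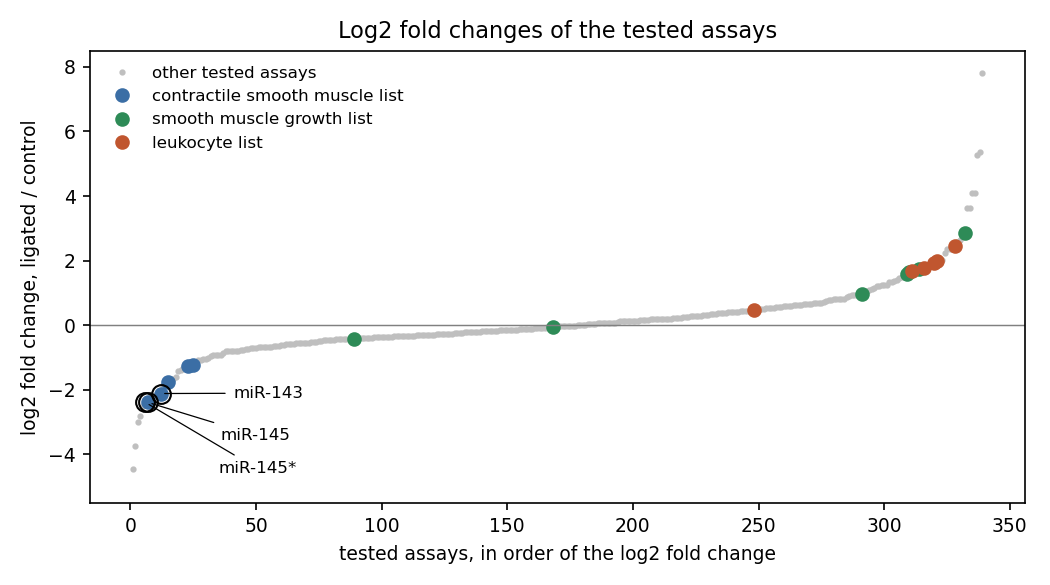
Log2 fold change of ligated over control arteries (vertical) for the 339 tested assays in rising order (horizontal), with 3 lists in colour and miR-143, miR-145 and miR-145* ringed. All 5 members of the contractile list lie below -1.2, and the growth and leukocyte lists lie mostly at the upper end.

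Of the markers of other cell types, leukocyte miRNAs, miR-1 and miR-375 passed the test, and their part in the fall of miR-143 and miR-145 was not tested. All 6 leukocyte miRNAs were tested, 4 were called higher, against 7.37% of all tested assays, and none lower, with a median of 1.84. Their summed level, the log2 of the added linear levels, ran from 5.79 to 6.74 in control and from 6.85 to 8.75 in ligated arteries, with a narrow gap between them. The share of tested assays with such a gap in this direction is not given here. miR-155 and miR-142-5p rose by 2.44 ± 0.38 (SE) and 1.92 ± 0.26 (SE) and passed without any 1 artery. The other 2 calls were less firm: miR-142-3p was lost in 8 of the 12 repeats that left out 1 artery (all but control 5 and ligated 1, 2 and 3; adjusted p up to 0.0910) and miR-342-3p in 10 of 12 (all but control 2 and ligated 5; adjusted p up to 0.101). Neither endothelial marker, miR-126-3p or miR-126-5p, was called by limma, and their summed level ran from 6.84 to 8.34 in control and from 6.42 to 9.18 in ligated arteries. In the wider endothelial list of 4, which adds miR-10b and miR-92a, miR-10b was called higher at 0.97 ± 0.27 (SE), a call lost with the replicate block (adjusted p 0.0551) and in 8 of 12 such repeats (all but control 2 and 5 and ligated 4 and 5).

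Of the 5 skeletal and heart muscle markers, 4 were tested and 1 was lower, miR-1, already counted in the contractile list. Their summed level ran from 4.75 to 7.24 in control and from 2.77 to 6.99 in ligated arteries. miR-208, a marker of heart muscle, was undetected in all 12 samples, while miR-206, a marker of skeletal muscle, was detected in all 12. The liver marker miR-122 was undetected in all samples. Of the other markers, miR-375 of epithelium fell by 3.75 ± 0.85 (SE), while miR-200c, the other epithelial marker, was at 1.22 ± 1.10 (SE) and did not pass. miR-124 and miR-9 of neurons, at 1.22 ± 0.89 (SE) and -0.07 ± 0.36 (SE), and miR-451 of red blood cells, at -0.40 ± 0.62 (SE), did not pass, while miR-486 was detected in 2 samples of each group and was not tested.

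The assays whose levels were most like the mean of miR-143 and miR-145 were sought among the 281 others detected in all samples. Over the 12 samples, which include the difference between the groups, the highest Pearson correlations were those of miR-224 (r = 0.936), miR-30b (0.931), miR-29c* (0.925), miR-30a (0.913) and miR-30e* (0.884), followed by miR-1 at 0.849. With the mean of each group removed, they were those of miR-30a (0.957), miR-30d (0.896), miR-224 (0.861), miR-195 (0.848) and miR-467c (0.809). All of these levels share the same reference, the 12 samples hold 2 sets, and the correlations are a description without a test. miR-30a, miR-30b and miR-30d belong to the miR-30 family, and miR-30e* is a passenger strand of it. The RefSeq mature sequences (GRCm38.p6) of those found in its table are shown with the seed, bases 2 to 8, in capitals, to show which of these assays share one, with miR-30c and miR-30e added as further members of the family.
miR-30a (chr1:23272274-23272295, + strand): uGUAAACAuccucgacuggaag
miR-30c (chr1:23291714-23291736, + strand): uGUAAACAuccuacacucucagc
miR-30e (chr4:120772660-120772681, - strand): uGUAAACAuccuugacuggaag
miR-30e* (chr4:120772618-120772639, - strand): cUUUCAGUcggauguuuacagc
miR-224 (chrX:72261085-72261105, - strand): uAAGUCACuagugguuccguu
miR-29c* (chr1:195037562-195037583, + strand): uGACCGAUuucuccugguguuc
miR-195 (chr11:70235062-70235082, + strand): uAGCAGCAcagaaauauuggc

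The 3 guide strands of the miR-30 family shown carry 1 seed, and the other sequences shown have a seed each of their own. The levels of these assays changed less than those of the smooth muscle guide strands. miR-224 fell by 1.09 ± 0.32 (SE) with an adjusted p of 0.0440, miR-29c* by 1.19 ± 0.22 (SE) with 0.00669, miR-30e* by 0.94 ± 0.21 (SE) with 0.0148 and miR-30b by 0.80 ± 0.23 (SE) with 0.0428 (limma). miR-30c fell by 1.06 ± 0.24 (SE) with an adjusted p of 0.0148, although its correlation with group means removed was 0.345. miR-30a at -0.44 ± 0.22 (SE), miR-30e at -0.45 ± 0.22 (SE), miR-30d at -0.27 ± 0.21 (SE) and miR-195 at -0.11 ± 0.26 (SE) did not pass, and miR-467c rose by 0.95 ± 0.28 (SE). When 1 artery was left out, the calls of miR-29c*, miR-30e* and miR-30c passed in all 12 repeats. Those of miR-224 (kept without control 2 or ligated 2), miR-30b (kept without control 2) and miR-467c (kept without ligated 4) were lost in 10, 11 and 11 of 12, with adjusted p up to 0.103 (limma). In the fit with the replicate block, miR-224 (adjusted p 0.0877) and miR-467c (0.0797) also lost the call. In raw Ct the signs of miR-30b and miR-30e* turned.

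Control 2, the control artery with the lowest miR-143 and miR-145, was also the lowest control artery for miR-30a at 4.25, where the other controls ran from 4.88 to 5.45. It was likewise lowest for miR-224 at 0.04, where the others ran from 0.74 to 1.68. Without control 2 the log2 fold changes of miR-145 and miR-143 were -2.75 and -2.42, their largest sizes when any 1 sample was left out.

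**Figure D5:**
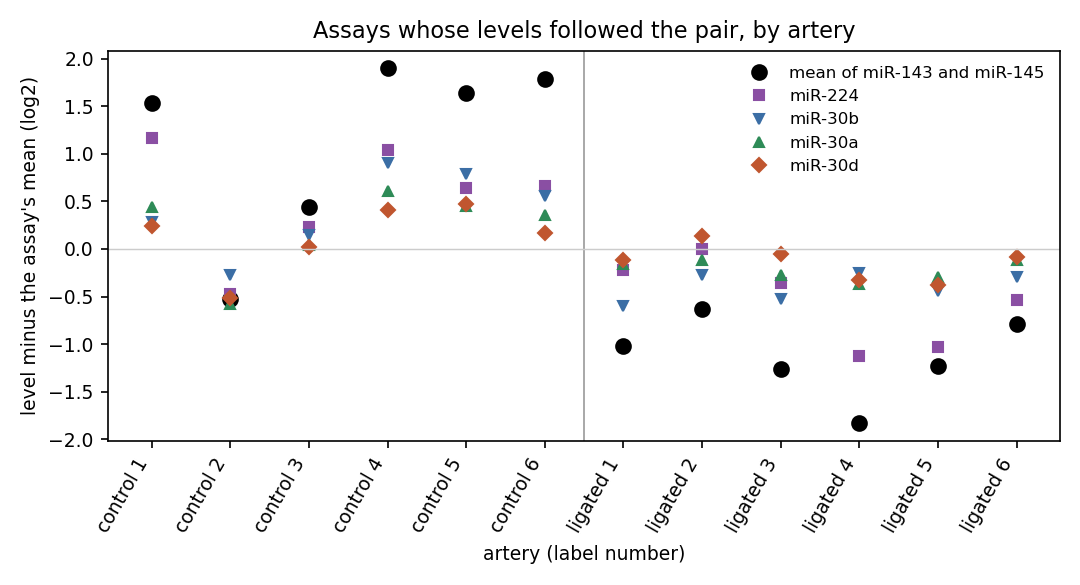
Log2 level minus the mean of the assay over 12 arteries (vertical) for the mean of miR-143 and miR-145 (black) and for miR-224, miR-30b, miR-30a and miR-30d, by artery (horizontal), with controls left of the line. Control 2 is the lowest control for each of the 5 series, and the range of the smooth muscle guide strands is wider than that of the others.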

How the data were processed

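RNA was isolated with the mirVana kit, per the labels' protocols, and miRNAs were measured by quantitative PCR. The authors deposited raw threshold cycles per assay, per the file headers, with wells that did not amplify at 40; the instrument and its threshold are not given. A deposited value table holds the Ct relative to the average of snoRNA429 and U6, to within 5.0e-05 cycles over 513 assays. A separate table of other assays was not used. Control RNAs with repeated rows were averaged.

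Scaling in each sample used the mean Ct of the 283 miRNA assays detected (Ct below 35) in all 12 samples, and undetected wells were set to 35. The 339 assays that 4 or more of the 6 samples of a group detected were fitted with limma 3.58.1 in R 4.3.3 (lmFit, eBayes), on group alone, with p-values adjusted over all of them by Benjamini-Hochberg, and adjusted p-values below 0.05 were called; the fit was tested on simulated data. Folds take a doubling per cycle. Balances of 2 assays were compared by exact two-sided permutation over all 924 splits.

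Replicate numbers 1 to 6 stand in both groups. After subtracting group means, samples sharing a number correlated with r of 0.283 to 0.622. Only control 3 correlated best with the ligated artery of its own number. With the number sets 1 to 3 and 4 to 6 also removed, r was -0.26 to 0.226. Treating the numbers as pairs, in a replicate block or by sign flips, was therefore an alternative and not the main test. The labels do not say that a number is a mouse, and call the samples biological replicates.

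The members, lists, partners and settings were chosen with earlier results of these data known. Named were the members, 8 partners, 6 lists with the cell type markers in them, the 5 assays most like the members by each of 2 correlations, neighbours in the order of fold change or Ct, and control RNAs. miR-30c and miR-30e, the gaps of miR-145* and the shares of summed signal were added after values were seen. Alternatives covered scaling, detection limit, undetected wells, filter, blocks, weights, tests and leaving out samples.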

Additional observations from a re-analysis of the deposited data

Results flagged for a closer look

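In groups of 6 arteries, 143 sets of values of the named assays, balances and control RNAs were searched for 1 sample far from the others (beyond Dixon's critical value), and 4 had one; chance flags about 1 in 20 such sets. The balance of miR-145 against miR-1 stood at 10.5 cycles in ligated 2, where the other ligated arteries had a median of 8.84. The level of miR-30e* was 4.55 in control 2, with a median of 5.30 in the other controls. In ligated 1 the levels of miR-214 and let-7b were 0.33 and 2.18, with medians of 3.17 and 4.05 in the other ligated arteries.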

How the results depend on the processing

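Both guide strands were lower in ligated arteries under all 33 alternatives, and past the threshold in 29 for miR-143 and 28 for miR-145. The values that lost the call (limma) were, for miR-143 and miR-145, -1.13 and -1.40 with raw Ct, -2.32 and -2.60 with U6 and snoRNA429 or with the deposited value table (adjusted p 0.154 and 0.0883), and -1.41 and -1.49 within numbers 1 to 3; for miR-145 also -0.62 with quantile normalization. Why the other settings ended these calls was not tested. Leaving out 1 sample gave -2.42 to -1.97 for miR-143, -2.75 to -2.22 for miR-145 and -3.40 to -1.78 for miR-145*, which passed in no alternative, and changed no call of these 3. With the replicate block the adjusted p-values were 0.0176, 0.0247 and 0.146, and among the members' results it changed the call of the lead of miR-145 over miR-143 (-0.28, sign flips, exact p 0.156). Among the other named assays it ended the calls of miR-10b, miR-224 and miR-467c and made those of miR-223, miR-133b and miR-378*, with values beside them above, and changed no other. That lead changed by -0.075 in numbers 1 to 3 and -0.48 in numbers 4 to 6, where 3 against 3 cannot go below a p of 0.1, and by -0.35 to -0.21 without 1 sample. The correlations of the guide strands were 0.731 in control and 0.742 in ligated arteries without the 2 farthest samples. The balances against miR-1 turned to 0.17 for miR-143 and 0.091 for miR-145 within numbers 1 to 3; the other balances kept their sign under all alternatives run.

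The counts of called assays were 25 higher and 17 lower. They were 57 and 0 with raw Ct (6 lower at an unadjusted p under 0.05), 7 and 3 with U6 and snoRNA429, 9 and 4 with the deposited table, 5 and 0 in the set of numbers 1 to 3, 50 and 51 in that of numbers 4 to 6, and 51 and 50 with array weights. Lower calls were 30 with the number sets as a block. With ligated 5 and 6 averaged, an alternative chosen after seeing the data, they were 11 lower, or 41 higher and 31 lower within numbers 4 to 6. Without 1 sample, 15 to 26 were higher and 10 to 20 lower, and the counts moved by over 1.5 times when control 6 (15 higher, 11 lower), control 3 (10 lower) or control 1, control 4, ligated 5 or ligated 6 (each 11 lower) was left out. In raw Ct miR-30e* turned to 0.044 and miR-30b to 0.19. The median over all tested assays was -0.05, and 0.93 with raw Ct, -0.26 with U6 and snoRNA429, -0.14 with median scaling and -0.12 with quantile normalization. All 4 wells of miR-145* without a signal limit that assay.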
